A study of Mus musculus with 13 samples.

Results

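CC chemokines are small secreted proteins, named for a pair of adjacent cysteines, that steer leukocytes through G protein-coupled receptors on their surface. In bone marrow, stromal cells are a known source of CCL2, which draws monocytes through the receptor CCR2, while activated lymphocytes and myeloid cells are known sources of CCL3, CCL4 and CCL5. The 10 genes described here, Ccl2, Ccl3, Ccl4, Ccl5, Ccl6, Ccl7, Ccl8, Ccl9, Ccl11 and Ccl19, were taken by symbol from a table of 33432 named gene entries. All 10 had at least 1 FPKM in at least 3 libraries, the limit for testing, and so stood among 13118 genes tested. Ccl3, Ccl4, Ccl5 and Ccl6 reached that limit through the pre-leukemic libraries, the group in which they were highest, so a difference was built into their being tested.

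The libraries came from polyadenylated RNA of sorted mesenchymal stromal cells (MSCs), the skeletal stromal population that supports blood formation, isolated from marrow and compact bone of C57BL/6 mice. The 3 groups were 3 healthy libraries from control mice, 6 libraries from pre-leukemic mice, and 4 libraries titled recovered, taken here as those of pre-leukemic mice treated with MSCs. The labels give no age, no leukemia allele, no surface markers for the sort and no statement that replicates were separate animals. The spread behind each p-value may therefore be technical. Values are FPKM, fragments scaled to gene length and library size, and so allow levels of different genes to be compared within a library.

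Libraries 1 and 3 of the healthy group were nearly as alike as repeat counts of 1 library, with a chi-square per gene of 1.22 over 212 well-covered genes, against at least 22.8 in every other pair within a group. Their average was counted as 1 sample, which left 2 healthy, 6 pre-leukemic and 4 recovered samples; group means ± SD below are over these. The defining markers of the label were weak in 1 group: 15 stromal markers summed to 15633 to 16925 FPKM in healthy and 6221 to 8726 in recovered libraries, but to 304.7 to 990.5 in pre-leukemic libraries. Dcn made up most of these sums, at 11751.5 to 12429.3 FPKM in healthy, 3830 to 6383 in recovered and 193 to 779 in pre-leukemic libraries. In those same 6 libraries 14 pan-leukocyte markers summed to 2821 to 3486 FPKM, against 79.9 to 296 in the other 7 libraries, and 54.9 to 80.5% of all FPKM belonged to immunoglobulin genes. Fewer cells of a type and less RNA per cell cannot be told apart in such libraries. From the steps between low values, 1 read on a 1 kb transcript was worth about 0.313 to 0.38 FPKM in the healthy group, 0.164 to 0.237 in the pre-leukemic group and 0.349 to 0.639 in the recovered group, so values below about 1 FPKM rest on a few reads for most of these genes, Ccl9 with its longer transcript excepted.

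The genes divided by group. Ccl2 and Ccl7 made up nearly all CC chemokine expression in healthy and recovered libraries, and Ccl4 and Ccl5 most of it in pre-leukemic libraries. Between pre-leukemic and healthy samples, Ccl4, Ccl5, Ccl6 and Ccl11 rose and Ccl2 and Ccl7 fell, that is 4 of 10 higher and 2 lower, where 14.2% of all genes tested were higher and 13.1% lower. Between recovered and pre-leukemic samples, Ccl2, Ccl7 and Ccl19 rose and Ccl4, Ccl5 and Ccl6 fell, 3 in each direction, where 14.8% of all genes were higher and 25.1% lower. Between recovered and healthy samples 1 of the 10, Ccl11, was higher, where 0.518% of all genes were higher and 1.99% lower; no gene of the 10 was lower there by limma, adjusted or at an unadjusted p under 0.05. The last comparison shares its samples with the first and second, so the 3 are not independent. The median change of the 10 genes was 0.96, 0.57 and 1.05 on the log2(FPKM + 1) scale in the 3 comparisons, beside 0.20, -0.41 and -0.08 over all genes tested. With groups listed at 0 set to the value of 3 reads, the third median was 0.60.

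**Figure D1:**
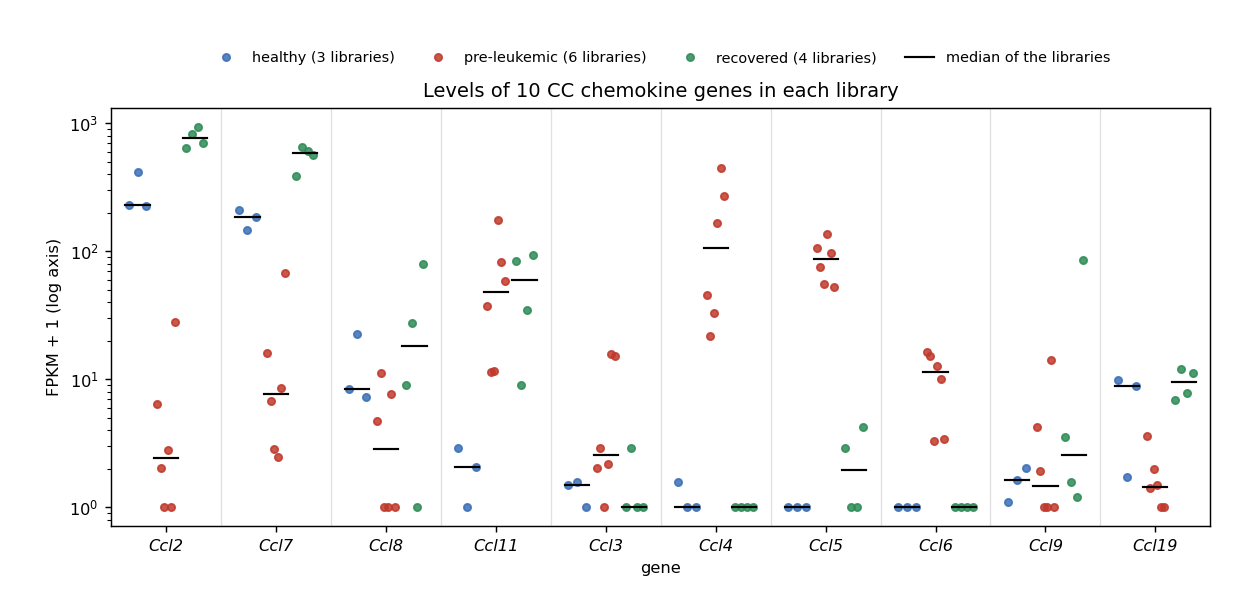
Level of each of the 10 CC chemokine genes in each library, as FPKM + 1 on a log axis, with 1 point per library and a bar at the group's median. Ccl2 and Ccl7 are high in the healthy and recovered libraries, Ccl4, Ccl5 and Ccl6 in the pre-leukemic libraries, and Ccl11 in both the pre-leukemic and recovered libraries.

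The share of each gene in the summed FPKM of the 10 shows the exchange within a library, and does not depend on how libraries were scaled to each other. Ccl2 held 50.1, 71.1 and 52.8% of the sum in healthy 1 to 3, 56.8, 54.1, 59.3 and 45.5% in recovered 1 to 4, and from 0 to 5.51% in the pre-leukemic libraries. Ccl2 and Ccl7 together held 95.8 to 96.2% in healthy, 82.5 to 97.4% in recovered and 0.662 to 19.2% in pre-leukemic libraries. Ccl4 and Ccl5 together held 61.3 to 84.6% in pre-leukemic libraries, at most 0.126% in healthy and at most 0.211% in recovered libraries. None of these ranges of the pre-leukemic libraries overlapped those of the other libraries.

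**Figure D2:**
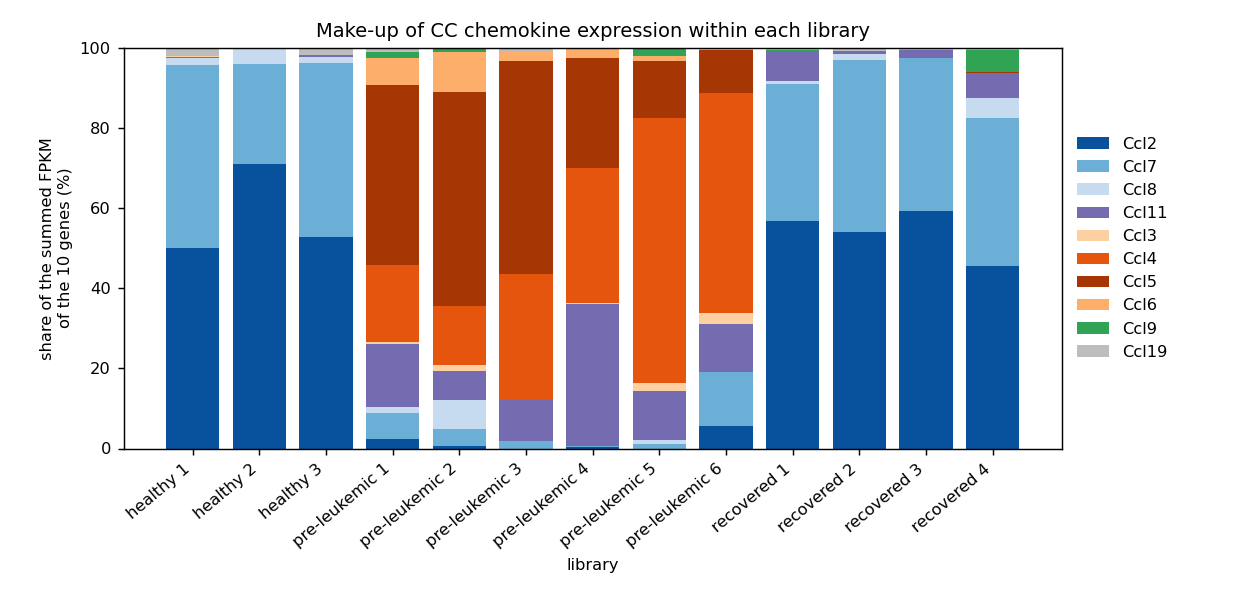
Share of each gene in the summed FPKM of the 10 CC chemokine genes, in percent, with 1 bar per library. The blue segments at the bottom (Ccl2, Ccl7 and Ccl8) fill at least 87.6% of each healthy and recovered bar, and the segments of Ccl3, Ccl4 and Ccl5 fill 61.5 to 84.7% of each pre-leukemic bar.

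The total differed as well as the make-up. The 10 genes summed to 457.7, 582.7 and 425.5 FPKM in healthy 1 to 3 and to 1131, 1524, 1580 and 1528 FPKM in recovered 1 to 4. In the pre-leukemic libraries the sum ran from 102 to 670 FPKM, with a median of 358. In FPKM the recovered libraries all lay above the others, and the healthy and pre-leukemic libraries overlapped. With every library scaled to the same sum (TPM scale) that overlap was gone: the 10 genes summed to 707 to 930 TPM in the healthy, 35.8 to 363.5 in the pre-leukemic and 1811 to 2205 in the recovered group. Immunoglobulin genes held 54.9 to 80.5% of pre-leukemic FPKM, so this scale lowers other genes there. It moved the median change of all genes tested by -1.28 in pre-leukemic against healthy samples.

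Among the monocyte attractants Ccl2, Ccl7 and Ccl8, the first 2 were the highest of the 10 genes in healthy and recovered samples. Ccl2 encodes the main ligand of CCR2 (GRCm38 chromosome 11, 82035571 to 82037453, plus strand). It was at 229, 414 and 225 FPKM in healthy 1 to 3, at 642, 825, 937 and 696 FPKM in recovered 1 to 4, and in pre-leukemic libraries from 0 to 26.7 FPKM with a median of 1.40. The 3 groups did not overlap, with every recovered library above every healthy one and every healthy one above every pre-leukemic one. Ccl2 fell by 6.61 ± 0.96 (SE) on the log2 scale between healthy and pre-leukemic samples (limma adjusted p = 0.000156) and rose by 7.93 ± 0.76 from pre-leukemic to recovered samples (adjusted p = 1.91e-06). Pre-leukemic 3 and 5 were listed at 0, where 3 reads would give about 0.448 to 0.65 FPKM. The pre-leukemic mean of 5.82 ± 10.4 FPKM was 1.63 without pre-leukemic 6.

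Ccl7, another ligand of CCR2, lies 8.3 kb from Ccl2 on the same strand (82045712 to 82047525) and followed it closely. It was at 209, 145 and 185 FPKM in healthy 1 to 3, at 388, 651, 602 and 565 FPKM in recovered 1 to 4, and from 1.46 to 66.5 FPKM with a median of 6.62 in pre-leukemic libraries. These groups did not overlap either. Ccl7 fell by 4.29 ± 0.92 in pre-leukemic against healthy samples (adjusted p = 0.00298) and rose by 5.96 ± 0.72 in recovered against pre-leukemic samples (adjusted p = 1.83e-05). Its pre-leukemic mean of 16.4 ± 25 FPKM was 6.32 without pre-leukemic 6, the library that also held the highest pre-leukemic Ccl2.

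Ccl2 and Ccl7 kept different proportions in the groups. The ratio of Ccl7 to Ccl2 was 0.911, 0.35 and 0.821 in healthy 1 to 3 and 0.604, 0.789, 0.642 and 0.812 in recovered 1 to 4, so Ccl2 was the higher of the pair in each of these 7 libraries. In the pre-leukemic libraries the ratio was 2.82, 5.63, 0.816 and 2.49 in libraries 1, 2, 4 and 6, and Ccl7 stood at 1.82 and 7.53 FPKM in libraries 3 and 5, where Ccl2 was listed at 0. Ccl7 was thus the higher of the pair in 5 of the 6 pre-leukemic libraries. In pre-leukemic 4 both genes were near the value of a few reads (1.46 and 1.79 FPKM), and the difference in ratio between groups was not tested.

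Recovered samples exceeded healthy ones in both genes without passing the test. The recovered mean of Ccl2 was 775 ± 133 FPKM against 321 ± 132 in healthy samples, a ratio of 2.42 (change 1.319 ± 1.014, adjusted p = 0.58). For Ccl7 it was 551 ± 115 against 171 ± 36.7 FPKM, a ratio of 3.23 (change 1.67 ± 0.97, adjusted p = 0.431). With 2 healthy samples, these standard errors leave room for no change and for a rise of several fold.

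Ccl8, which in mice attracts cells through CCR8, lies in the same cluster (82115185 to 82116799) but was low and scattered. It was at 7.37, 21.7 and 6.31 FPKM in healthy 1 to 3, at 8.02, 26.3, 0 and 78.3 FPKM in recovered 1 to 4, and at 0 to 10.2 FPKM with a median of 1.85 in pre-leukemic libraries, 3 of which were listed at 0. All 3 groups overlapped. The change was -2.29 ± 1.37 in pre-leukemic against healthy samples (adjusted p = 0.236) and 2.12 ± 1.09 in recovered against pre-leukemic samples (adjusted p = 0.134, or 0.0137 without recovered 3, range over the alternatives 0.0137 to 0.391). The recovered mean of 28.2 ± 35.2 FPKM was 11.4 without recovered 4. Transcripts of Ccl8 are short, at 511 bp, so 3 reads would give 2.05 to 3.75 FPKM in recovered libraries.

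Ccl11, the eosinophil attractant eotaxin and a ligand of CCR3, had a pattern of its own within the Ccl2 cluster (82057823 to 82062955, 10.3 kb beyond Ccl7). It was at 1.89, 0 and 1.05 FPKM in healthy 1 to 3, at 10.3 to 174 FPKM with a median of 46.6 in pre-leukemic libraries, and at 82.7, 8.08, 33.8 and 92.8 FPKM in recovered 1 to 4. Every pre-leukemic and every recovered library stood above every healthy one, while the pre-leukemic and recovered libraries overlapped over most of their range. Against healthy samples Ccl11 rose by 4.67 ± 1.04 in pre-leukemic (adjusted p = 0.00408) and by 4.66 ± 1.11 in recovered samples (adjusted p = 0.0412). Between recovered and pre-leukemic samples the change was -0.01 ± 0.83 (adjusted p = 0.998), and it was 1.39 with libraries scaled to the same sum (TPM scale), still not called. The pre-leukemic mean of 61.5 ± 61.4 FPKM was 39.1 without pre-leukemic 4.

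The calls of Ccl11 rest on few healthy values. Without healthy 2, which left 1 healthy sample assumed to vary like the other groups, the adjusted p was 0.102 for pre-leukemic (range over the alternatives 0.000974 to 0.102) and 0.442 for recovered samples (range 0.0126 to 0.442). The recovered call also ended without the filter on low values (0.0789), with libraries scaled without immunoglobulin genes (0.0507), with only both groups in the fit (0.208), and without pre-leukemic 1, 5 or 6 or recovered 1, 3 or 4 (0.0544 to 0.0673). The change itself lay between 4.005 and 5.367 when any 1 library was left out. The healthy levels of 0 to 1.89 FPKM are near the depth limit, since 3 reads on Ccl11 give about 0.868 to 1.05 FPKM there.

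**Figure D3:**
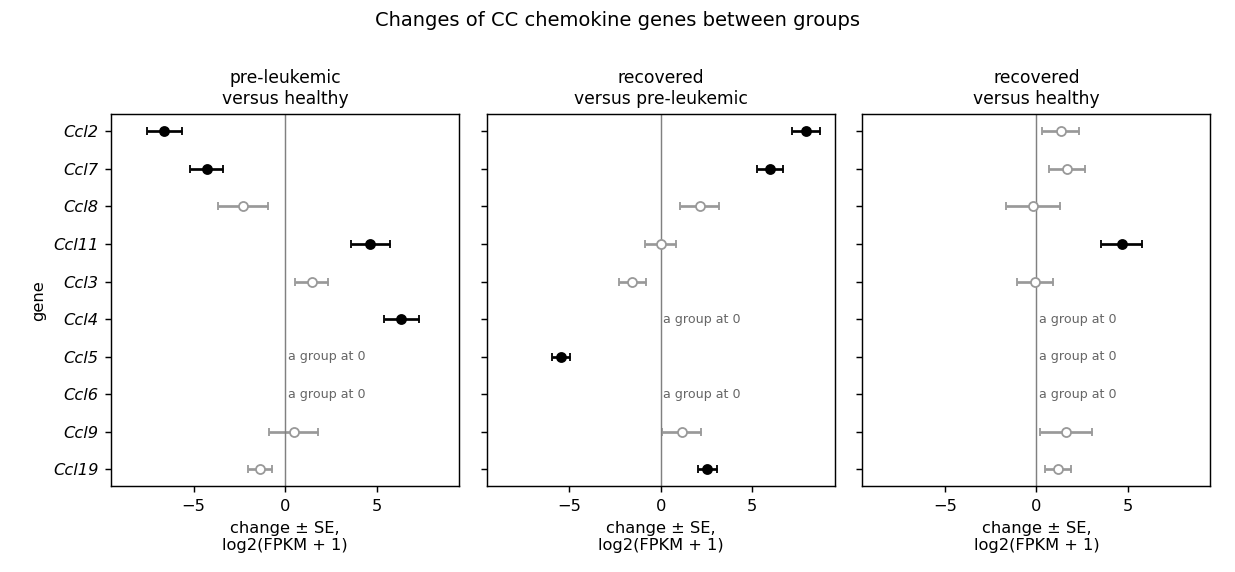
Change of each gene in the 3 comparisons on the log2(FPKM + 1) scale, with its standard error as bars; filled points have a limma adjusted p under 0.05. Changes against a group listed at 0 in every library are not drawn. Ccl2 and Ccl7 lie at opposite sides of 0 in the first and second comparisons, and Ccl11 lies near 4.66 against healthy samples in both the first and the third.

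Among Ccl3, Ccl4 and Ccl5, the last 2 led in level. Ccl4, an attractant of lymphocytes and monocytes (chromosome 11, 83662584 to 83664683, plus strand), was at 0.578 FPKM in healthy 1, about the value of 1 read, and listed at 0 in healthy 2 and 3 and in all 4 recovered libraries. In pre-leukemic libraries 1 to 6 it was at 44.8, 20.7, 31.9, 166, 442 and 267 FPKM. All pre-leukemic libraries stood far above all others, and they spread widely among themselves, from 20.7 to 442 FPKM. Ccl4 was higher in pre-leukemic than in healthy samples by 6.36 ± 0.95 (adjusted p = 0.000208), a size that depends on the pseudocount, and lower in recovered than in pre-leukemic samples (adjusted p = 1.12e-05). The recovered zeros allow up to 3 reads, or 1.58 to 2.91 FPKM on this gene, counting error only. The pre-leukemic mean of 162 ± 167 FPKM was 106 without pre-leukemic 5.

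Ccl5, an attractant of T cells and other leukocytes (83525778 to 83530518, minus strand), varied less between pre-leukemic libraries. It was at 104, 74.7, 54.3, 135, 95.4 and 51.9 FPKM in pre-leukemic 1 to 6, listed at 0 in all 3 healthy libraries, and at 1.90, 0, 0 and 3.23 FPKM in recovered 1 to 4. Pre-leukemic libraries did not overlap the others. Ccl5 was higher in pre-leukemic than in healthy samples (adjusted p = 5.66e-06) and fell by 5.45 ± 0.49 from pre-leukemic to recovered samples (adjusted p = 1.14e-06).

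Ccl4 and Ccl5 did not keep step across the pre-leukemic libraries. The ratio of Ccl4 to Ccl5 was 0.431, 0.277 and 0.588 in pre-leukemic 1 to 3 and 1.23, 4.64 and 5.14 in pre-leukemic 4 to 6, so Ccl5 was the higher in 3 of the libraries and Ccl4 in the other 3. Libraries 5 and 6, with the largest ratios, were also those with the highest Ccl3.

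Ccl3, the close relative of Ccl4 that acts on CCR1, lies 13.2 kb from it on the opposite strand (83647844 to 83649355) yet was expressed at a small part of its level. It was at 1.02, 1.91, 0, 1.17, 14.6 and 14.2 FPKM in pre-leukemic 1 to 6, at 0.478, 0.578 and 0 FPKM in healthy 1 to 3, and at 1.90 FPKM in recovered 2 with the other recovered libraries listed at 0. Only pre-leukemic 5 and 6 stood clear of the healthy and recovered libraries. The change was 1.44 ± 0.93 in pre-leukemic against healthy samples (adjusted p = 0.268) and -1.54 ± 0.73 in recovered against pre-leukemic samples (adjusted p = 0.107, or 0.0435 without pre-leukemic 3, range over the alternatives 0.0435 to 0.34). Ccl4 exceeded Ccl3 by 10.8 to 142 times in the 5 pre-leukemic libraries where Ccl3 was above 0.

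Ccl6 and Ccl9 encode ligands of CCR1 made mainly by myeloid cells, and their genes neighbour each other on the minus strand of chromosome 11, 9.2 kb apart. Ccl6 (83587882 to 83593087) was listed at 0 in all 3 healthy and all 4 recovered libraries and was at 15.4, 14.2, 2.29, 11.8, 9.03 and 2.40 FPKM in pre-leukemic 1 to 6. Pre-leukemic libraries were all above the others (adjusted p = 0.00275 against healthy, 0.00029 for recovered against pre-leukemic samples). Zeros on this gene allow up to 0.652 to 0.792 FPKM in healthy and 0.726 to 1.33 FPKM in recovered libraries, 3 reads each. Libraries 3 and 6, with the lowest Ccl6, also had the lowest Ccl5, while Ccl4 was at 31.9 and 267 FPKM in them.

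Ccl9 (83572919 to 83578636) did not share this pattern. It was at 3.25, 0.915, 0, 0, 13.02 and 0 FPKM in pre-leukemic 1 to 6, at 0.103, 0.623 and 1.03 FPKM in healthy 1 to 3, and at 2.52, 0.565, 0.209 and 83.6 FPKM in recovered 1 to 4. The groups overlapped and 1 library, recovered 4, held nearly all of the recovered signal: the recovered mean of 21.7 ± 41.3 FPKM was 1.10 without it. No comparison passed (adjusted p = 0.833 for pre-leukemic against healthy, 0.415 for recovered against pre-leukemic and 0.649 for recovered against healthy samples).

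Promoter sequences of 5 of the 10 genes (Ccl3, Ccl6, Ccl8, Ccl9 and Ccl19) were matched in a RefSeq table on GRCm38.p6. The windows of the neighbours Ccl6 and Ccl9 are shown because these genes lie side by side and differed in their values, with Ccl8 from the other cluster beside them. Each is the 250 bases before the annotated start, 5′ to 3′ on the gene's strand, with capitals for matches to 4 motifs searched on both strands: an NF-kappa-B-like motif (GGG, any 3 bases, TTCC), an AP-1-like motif (TGANTCA), an interferon-response-like motif (GAAA, any 2 bases, GAAA) and a TATA-like motif (TATAAA). Ccl6 lies at chr11:83593088-83593337, Ccl9 at chr11:83578637-83578886 and Ccl8 at chr11:82114935-82115184.
Ccl6: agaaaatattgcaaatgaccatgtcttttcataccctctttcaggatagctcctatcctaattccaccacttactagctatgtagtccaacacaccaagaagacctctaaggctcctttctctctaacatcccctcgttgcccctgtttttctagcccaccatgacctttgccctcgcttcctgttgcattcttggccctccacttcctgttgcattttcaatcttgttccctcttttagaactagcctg
Ccl9: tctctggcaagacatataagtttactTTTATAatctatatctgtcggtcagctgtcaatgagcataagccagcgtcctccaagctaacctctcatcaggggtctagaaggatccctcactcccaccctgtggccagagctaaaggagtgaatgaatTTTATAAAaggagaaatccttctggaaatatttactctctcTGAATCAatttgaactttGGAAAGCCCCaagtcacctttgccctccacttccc
Ccl8: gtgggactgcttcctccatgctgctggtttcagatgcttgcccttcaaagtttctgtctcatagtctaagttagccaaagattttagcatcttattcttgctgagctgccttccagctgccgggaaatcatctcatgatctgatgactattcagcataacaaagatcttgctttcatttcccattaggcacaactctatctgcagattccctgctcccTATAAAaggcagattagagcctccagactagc

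The Ccl6 window held none of the 4 motifs, and the Ccl9 window held 3 of them. The NF-kappa-B-like motif of Ccl9 lay on the opposite strand at positions -35 to -26 from the start and its AP-1-like motif at -53 to -47, and TATAAA matched on the opposite strand at -224 to -219 and on both strands in overlapping matches at -94 to -89 and -92 to -87. The Ccl8 window held TATAAA at -32 to -27. Among all 32851 promoter windows of the table, 4.65% held the NF-kappa-B-like, 6.75% the AP-1-like, 2.98% the interferon-response-like and 12.4% the TATA-like motif. Such matches describe the letters of the window and not a bound site.

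**Figure D4:**
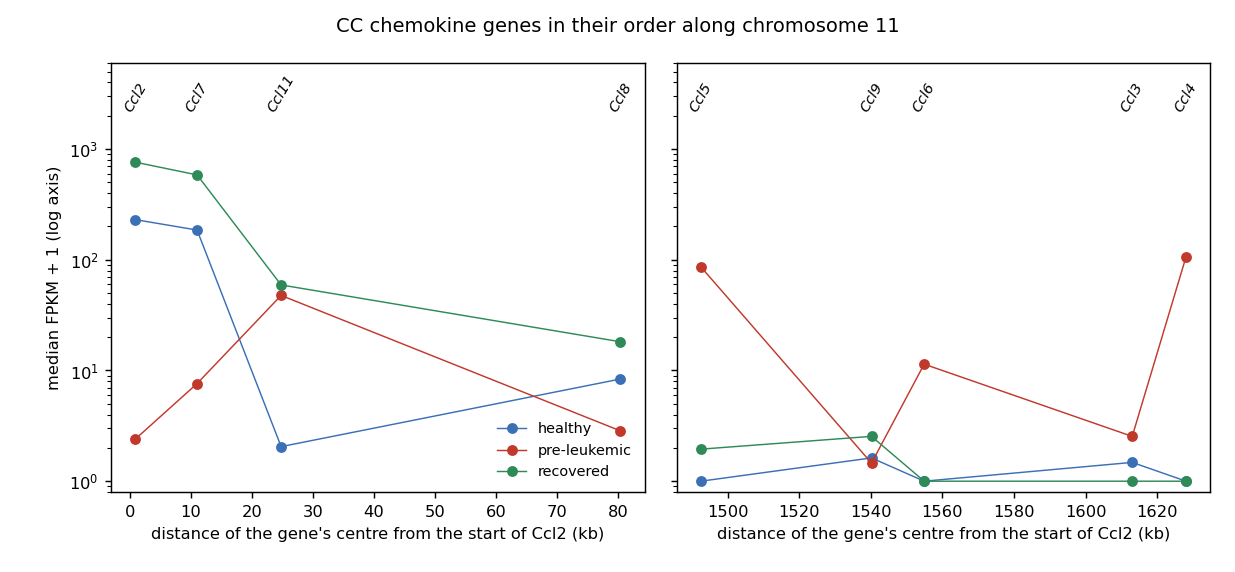
Median level of each of the 9 genes on chromosome 11, as FPKM + 1 on a log axis, against the distance of the gene's centre from the start of Ccl2 in kb, with 1 line per group joining genes in their order. Neighbours differ: Ccl7 and Ccl11 are 10.3 kb apart and Ccl11 alone of the left cluster is lowest in healthy libraries, while Ccl9 lies between Ccl5 and Ccl6 without their rise in pre-leukemic libraries.

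Ccl19, a ligand of CCR7 that guides dendritic cells and T cells and is made by lymphoid stromal cells, is the gene of the 10 outside chromosome 11 (chromosome 4, 42754525 to 42756577, minus strand). It was at 8.92, 0.718 and 7.89 FPKM in healthy 1 to 3, at 5.83, 10.9, 6.86 and 10.1 FPKM in recovered 1 to 4, and at 2.59, 0.402, 1.0004, 0.497, 0 and 0 FPKM in pre-leukemic 1 to 6. Recovered libraries were all above the pre-leukemic ones, and healthy 2 fell within the pre-leukemic range. Ccl19 rose by 2.55 ± 0.53 from pre-leukemic to recovered samples (adjusted p = 0.00156). In pre-leukemic against healthy samples the change of -1.35 ± 0.66 did not pass (adjusted p = 0.148), but it passed without healthy 2 (0.0373), on the TPM scale (0.0341), with quantile normalization (0.0466) and with all 13 libraries kept separate (0.027), within a range of 0.027 to 0.225. The related pseudogene Ccl19-ps1 was listed at 1.996 to 3.784 FPKM in 3 libraries (pre-leukemic 2 and 4 and recovered 2) and at 0 in the others, and reads shared between such copies make these levels uncertain. Genes on the opposite strand overlap Ccl2 (Gm17268), Ccl6 (E230016K23Rik) and Ccl19 (4930578G10Rik); the first and last were listed at 0 in every library and E230016K23Rik reached at most 0.715 FPKM.

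Each group had its own order of levels per gene length. In healthy samples Ccl2 (321 ± 132 FPKM) and Ccl7 (171 ± 36.7) came first, with Ccl2 the higher in each of the 3 libraries. Ccl8 (14.3 ± 10.5) and Ccl19 (4.56 ± 5.44) followed and overlapped each other, and the remaining genes were below 1 FPKM on average. In recovered samples Ccl2 (775 ± 133) and Ccl7 (551 ± 115) overlapped, with Ccl2 the higher in each of the 4 libraries. Ccl11 (54.3 ± 40.2), Ccl8 (28.2 ± 35.2), Ccl9 (21.7 ± 41.3) and Ccl19 (8.42 ± 2.46) came next without standing apart from each other. In pre-leukemic samples Ccl4 (162 ± 167), Ccl5 (85.9 ± 32) and Ccl11 (61.5 ± 61.4) overlapped at the top, and Ccl7 (16.4 ± 25), Ccl6 (9.18 ± 5.72), Ccl2 (5.82 ± 10.4), Ccl3 (5.50 ± 6.95), Ccl8 (3.44 ± 4.3), Ccl9 (2.86 ± 5.13) and Ccl19 (0.748 ± 0.975) formed a run of neighbours within each other's spread. Among all listed genes of a library, Ccl2 ranked 136 to 168 in recovered and 240 to 380 in healthy libraries, but 2832 to 11038 in the 4 pre-leukemic libraries where it was above 0. Ccl4 ranked 198 to 3214 in pre-leukemic libraries and Ccl5 600 to 1523.

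Most receptor genes were high in the libraries where Ccl2 and Ccl7 were low. Of 14 genes for CC chemokine receptors and atypical receptors, 13 were tested. In pre-leukemic against healthy samples 8 were higher, 2 lower and 3 neither, where 14.2% of all genes tested were higher and 13.1% lower. In recovered against pre-leukemic samples 2 were higher, 8 lower and 3 neither, beside 14.8% and 25.1% of all genes. Recovered against healthy samples gave no call by limma (0 higher and 1 lower at an unadjusted p under 0.05), beside 0.518% and 1.99% of all genes. On the TPM scale 7 were higher and 3 lower in the first comparison (median 2.21), and 2 higher and 7 lower in the second (median -2.21). The median change was 2.999 in the first comparison, or 2.55 with groups listed at 0 set to 3 reads, and -2.999 in the second, or -2.42. Over all genes tested the medians were 0.20 and -0.41. The 8 higher receptors were listed at 0 in every healthy library and reached the limit for testing through the pre-leukemic libraries. A difference was thus built into their being tested.

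Ccr2, the receptor of CCL2 and CCL7, was listed at 0 in all healthy libraries, at 12.5 to 32.8 FPKM (median 23.7) in pre-leukemic libraries and at 0.115 FPKM in recovered 3 with the other recovered libraries at 0 (adjusted p = 1.03e-05 against healthy and 5.72e-07 for recovered against pre-leukemic samples). The libraries with the highest Ccl2 and Ccl7, the healthy and recovered ones, were thus at or near 0 for Ccr2, while pre-leukemic 6 held Ccr2 at 12.5 FPKM beside Ccl2 at 26.7 and Ccl7 at 66.5 FPKM. Ccr9, a receptor of gut-homing lymphocytes, averaged 50.8 ± 24.6 FPKM and Ccr8, a receptor for CCL8 found on T cells, 23.1 ± 5.51 FPKM in pre-leukemic samples, with both listed at 0 in every healthy and recovered library (adjusted p against healthy 5.46e-06 and 6.28e-06). Ccrl2, a receptor-like protein that binds chemerin, averaged 58.1 ± 29.4 FPKM against 0 in healthy samples (adjusted p = 2.31e-05).

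The 2 lower receptors, named with Ackr1, Ccr3 and Ccr7 after their values were seen, were atypical ones, which take up chemokines without G protein signalling. Ackr4, which removes CCL19, fell by 3.53 ± 0.68 in pre-leukemic against healthy samples (adjusted p = 0.00139), from 13.2 ± 7.56 to 0.155 ± 0.24 FPKM. Ackr2, a scavenger of inflammatory CC chemokines, fell by 2.51 ± 0.80 (adjusted p = 0.0318, but up to 0.204 with 1 library left out), from 8.91 ± 0.956 to 1.12 ± 1.74 FPKM. Ackr1, which binds many chemokines on vessels and red cell precursors, varied too widely to pass (44.9 ± 11.8 in healthy, 16.9 ± 18.4 in pre-leukemic and 38.3 ± 44.9 FPKM in recovered samples). The receptor of CCL19, Ccr7, was low throughout, at 1.09 ± 0.711, 3.22 ± 2.65 and 0.78 ± 0.623 FPKM, and Ccr3, the receptor of CCL11, was listed at 0 in healthy and recovered and reached at most 2.75 FPKM in pre-leukemic libraries.

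**Figure D5:**
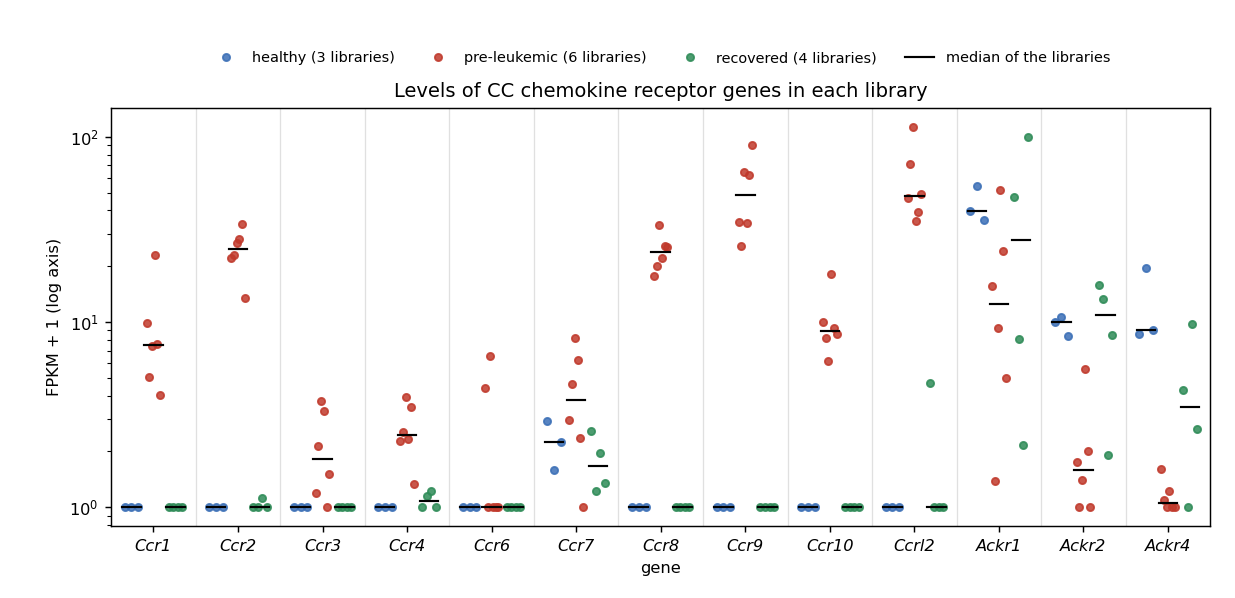
Level of 13 genes for CC chemokine receptors and atypical receptors in each library, as FPKM + 1 on a log axis, with 1 point per library and a bar at the group's median. Ccr1, Ccr2, Ccr4, Ccr8, Ccr9, Ccr10 and Ccrl2 are above 0 in every pre-leukemic library and listed at 0 in every healthy one. Ackr4 lies higher in the healthy than in the pre-leukemic libraries, and its healthy and recovered libraries overlap.

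The other CC chemokine ligands reached a sum of 5.19 to 18.3 FPKM in the healthy, 2.41 to 31.6 in the pre-leukemic and 1.15 to 98.2 in the recovered group. Of 14 further ligand genes 10 were listed and 2, Ccl25 and Ccl27a, had values high enough to be tested, and neither passed in any comparison by limma, adjusted or at an unadjusted p under 0.05 (on the TPM scale 1 was lower in pre-leukemic than in healthy and 1 higher in recovered than in pre-leukemic samples). Ccl12, a CCR2 ligand, had 10.8 FPKM in pre-leukemic 1 and 25.3 in pre-leukemic 2 and was listed at 0 in the other libraries, and Ccl1, a CCR8 ligand, had 3.38 FPKM in pre-leukemic 2 and 9.49 in pre-leukemic 3, with 0 elsewhere. Ccl17, Ccl20, Ccl22, Ccl24, Ccl26 and Ccl28 were listed at 0 in all 13 libraries. Ccl27a ranged from 0 to 96.6 FPKM within the recovered group.

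Cytokines that induce CC chemokines and the receptors for them formed a further list. Of its 11 tested genes, 2 were higher, 4 lower and 5 neither in pre-leukemic against healthy samples, where 14.2% of all genes were higher and 13.1% lower, with a median change of 0.08, or 0 with groups listed at 0 set to 3 reads. In recovered against pre-leukemic samples 4 were higher, 3 lower and 4 neither, beside 14.8% and 25.1% of all genes, with a median of 0.51. On the TPM scale, which moved the median of all genes tested by -1.28 in the first and 0.987 in the second comparison, the counts were 2 higher and 5 lower, then 6 higher and 3 lower, with medians of -1.44 and 1.89. On that scale 6.03% of all genes were higher and 32% lower in the first comparison, and 28.7% higher and 9.25% lower in the second. Ifng, the gene of interferon gamma, and Tnf, that of tumour necrosis factor, were listed at 0 in healthy samples. The pre-leukemic means were 19.5 ± 7.91 FPKM for Ifng (adjusted p = 3.93e-05) and 13.4 ± 4.95 FPKM for Tnf (adjusted p = 0.000155). Both genes reached the limit for testing through the pre-leukemic libraries, so a difference was built into their being tested. Il1r1, the interleukin-1 receptor, fell by 3.13 ± 0.56 in pre-leukemic against healthy samples (adjusted p = 0.000881) and rose by 3.80 ± 0.45 in recovered against pre-leukemic samples (adjusted p = 1.31e-05). Tnfrsf1a, the main receptor for tumour necrosis factor, fell from 179 ± 56.3 to 21.8 ± 6.3 FPKM (adjusted p = 4.27e-05) and was at 195 ± 29.9 in recovered samples (adjusted p = 1.67e-06 against pre-leukemic).

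Factors and feedback genes of NF-kappa-B, a transcription factor known to drive Ccl2 and Ccl5, gave 5 higher, 0 lower and 7 neither of 12 tested in pre-leukemic against healthy samples (0 lower also at an unadjusted p under 0.05), with a median change of 1.38. Recovered against pre-leukemic samples gave 0 higher, 7 lower and 5 neither by limma (1 higher at an unadjusted p under 0.05), with a median of -1.42. Of all genes tested, 14.2% were higher and 13.1% lower in the first comparison, and 14.8% and 25.1% in the second. The balance of calls was even on the TPM scale, with 2 higher and 2 lower in the first comparison (median -0.17). The second then gave 3 higher and 3 lower (median -0.25). On that scale 6.03% of all genes were higher and 32% lower in the first comparison (median -1.08). In the second 28.7% were higher and 9.25% lower (median 0.58). Tnfaip3, a feedback inhibitor, was at 99.2 to 761 FPKM in pre-leukemic libraries against 6.79 to 9.69 in healthy and 7.38 to 16.5 in recovered libraries (4.78 ± 0.58, adjusted p = 3.8e-05). Traf1, an adaptor of the same pathway, rose by 4.89 ± 0.79 (adjusted p = 0.000399) and Birc3, an apoptosis inhibitor, by 2.09 ± 0.46 (adjusted p = 0.00355), though the call of Birc3 did not hold under every alternative (adjusted p up to 0.456). Neither Tnfaip3 nor Traf1 was called in recovered against healthy samples (limma adjusted p = 0.868 and 0.829), which with 2 healthy samples does not show equal levels. The part of NF-kappa-B in the chemokine levels was not tested.

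Markers of other cells moved with these chemokine genes. The 6 libraries with high Ccl4, Ccl5 and Ccl6 had summed levels of 14 T and NK cell markers of 546 to 815 FPKM (8.95 to 77.9 in the others), of 13 neutrophil markers of 3228 to 15553 (22.8 to 661) and of 9 plasma cell markers of 46638 to 72895 (153 to 201). Nearly all of the plasma cell sum in the 6 libraries was Igj, at 44478 to 69250 FPKM. Of those lists, 11 of 14, 9 of 13 and 9 of 9 were higher against healthy samples, where 14.2% of all genes tested were higher and 13.1% lower. On the TPM scale 9, 8 and 7 were higher, beside 6.03% of all genes. In the same lists 7, 7 and 2 genes were listed at 0 in every healthy library. Apart from the neutrophil gene Lcn2, those genes reached the limit for testing through the pre-leukemic libraries, so a difference was built in. Monocyte and macrophage markers summed to 3382 to 5164 FPKM (35.5 to 165 in the others), with 4 higher, 1 lower and 3 neither of 8 tested, while the macrophage gene Adgre1 (listed as Emr1) did not exceed 0.249 FPKM in any library. The 7 libraries with high Ccl2 and Ccl7 had the higher sums of stromal markers. Of these markers 11 of 15 were lower and none higher in pre-leukemic against healthy samples, beside 13.1% of all genes lower. On the TPM scale 13 were lower, beside 32% of all genes. In recovered 4, where Ccl8 and Ccl9 were highest, the monocyte and macrophage sum was 118 FPKM, within the recovered range. Endothelial markers summed to 141 FPKM in recovered 3 and 17.7 or less in all other libraries. In recovered 3 nearly all of this was Emcn, at 140 FPKM. Cdh5 was at 0.312, Pecam1 at 0.211 and Tek at 0.149 FPKM there, with Kdr and Tie1 listed at 0. None of 5 endothelial markers tested passed by limma in pre-leukemic against healthy samples (1 higher at an unadjusted p under 0.05). Of 2 osteoclast markers tested, 1, Ctsk, was lower in the same comparison, at 7.33 ± 4.87 against 262 ± 12.3 FPKM. The other, Acp5, was not called there, at 43.3 ± 12.3 against 32.4 ± 21.7 FPKM. Calcr, Oscar and Ocstamp reached at most 1.81 FPKM in any library. The part of these other cells in the chemokine levels was not tested.

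Genes whose log2(FPKM + 1) was most like Ccl2, Ccl7, Ccl4, Ccl5 or Ccl6 over the 12 samples followed the same division into groups. Correlations with these genes share that division. The groups overlapped for Ccl3, Ccl8 and Ccl9, which had no call in any comparison. Nearest to Ccl2 were the stress-response gene Ndrg1 (r = 0.98), Sphk1 and the co-chaperone gene Bag3 (both r = 0.98), and to Ccl7 Gprc5a (r = 0.98), Cd63 and Adamtsl5 (both r = 0.97). Nearest to Ccl4 were Klk1, Smim5 and Cd300c (each r = 0.99), and to Ccl5 Sla, Ly6e and Cd200r1 (each r = 0.98). For Ccl6 they were the granulocyte antigen gene Ly6g (r = 0.99), Nfam1 (0.98) and Rnf43 (0.96). Ccl11 had no gene as close, with r = 0.88 for Clk3 and Pias3 and 0.86 for Klhl42. Values for Ccl3 were similar, at 0.90 for Afmid and Galk1 and 0.88 for Gpr35. For Ccl8 r was 0.93 for Cxcl2, 0.91 for Glrx5 and 0.89 for Fam57a. For Ccl9 it was 0.95 for Adamdec1, 0.93 for Rpl31-ps6 and 0.90 for Engase. For Ccl19 it was 0.93 for Rcn1 and Trim16 and 0.92 for Col22a1. Among the chemokine genes themselves, r was 0.97 for Ccl2 with Ccl7, 0.92 for Ccl4 with Ccl5 and 0.93 for Ccl5 with Ccl6, against 0.44 for Ccl2 with Ccl8 and -0.24 for Ccl2 with Ccl11.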

How the data were processed

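The deposited table holds FPKM values per gene symbol for 13 libraries. Per the submitters' processing notes, the authors used bcl2fastq, TopHat, Cufflinks 2.2.1 and Cuffnorm with the mm10 build; their settings are not given in any source used here. The Nextera XT kit named in the labels does not mark strand, so antisense reads cannot be separated. No counts were used. The worth of 1 read is approximate, read off the spacing of low values in 2821 single-transcript genes.

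Values were taken as log2(FPKM + 1) for the 13118 genes that reached 1 FPKM in 3 or more libraries; 1 row without a gene name was dropped. Tests were limma 3.58.1 in R 4.3.3 (moderated, with a trend), all 3 groups in 1 fit over 12 samples, with Benjamini-Hochberg adjustment over all genes tested and a call at an adjusted p under 0.05. Each adjusted p in the text comes from this limma fit across all genes or, where a setting or left-out library is named, from the same fit so changed. Fold changes are differences on the log2(FPKM + 1) scale, which understates changes of low genes. The method was tested on simulated data. Other work used Python 3.11.15, pandas 2.3.3 and scipy 1.17.1.

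Gene positions are from GENCODE on GRCm38. From each further list, counts are given over its tested genes and values for up to 5 genes with the smallest p, and for each chemokine gene the 3 genes with the highest Pearson r; genes outside this rule are marked where named or shown as defining markers. The members and lists were chosen with earlier results of these data known. Replicate numbers shared between groups did not pair the samples. Alternatives were another pseudocount, no filter, rescaled libraries, other groupings of the samples, a replicate block and each library left out. One receptor gene of the lists is counted but not reported here by name.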

Additional observations from a re-analysis of the deposited data

Results flagged for a closer look

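Of 18 sets of values (1 gene in the pre-leukemic or recovered group), 5 held a library far from the others. The limit used flags about 1 in 20 sets of normally distributed values by chance. FPKM values are skewed and hold zeros, so that rate need not apply. Whether 5 flags are more than chance would give can therefore not be told. In pre-leukemic 6, Ccl2 was at 26.74 FPKM with the next library at 5.351, and Ccl7 at 66.47 FPKM with the next at 15.09, so both CCR2 ligand genes stood out in the same library. In pre-leukemic 5, Ccl9 was at 13.02 FPKM with the next library at 3.25. In recovered 4, Ccl9 was at 83.6 FPKM with the next at 2.516. In recovered 2, Ccl3 was at 1.903 FPKM with the other recovered libraries at 0, where 1 read is worth 0.455 to 0.835 FPKM. A lone value above 0 is flagged at any size.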

How the results depend on the processing

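The calls of Ccl2, Ccl7, Ccl4, Ccl5 and Ccl6 in both comparisons with pre-leukemic samples, and of Ccl19 in recovered against pre-leukemic samples, held under 8 alternatives and with each of 13 libraries left out. Of the member values under the 8 alternatives, 219 kept their direction and side of the threshold, 3 lost and 3 gained a call and 7 changed sign; with a library left out these counts were 350, 8, 3 and 16. The number of members higher in recovered against healthy samples was 0 instead of 1 without a filter, with scaling without immunoglobulin genes and with only both groups in the fit, and 0 to 1 with a library left out. All genes called in that comparison numbered 329, but 211 with quantile normalization, 103 with only both groups, 767 with 13 separate libraries and 82 (without healthy 2) to 682 (without recovered 1) with a library left out. In pre-leukemic against healthy samples they ran from 1716 (without healthy 2) to 4112 (without recovered 3). Signs that turned were all of changes not called: Ccl9 in pre-leukemic against healthy samples (-0.22 with a pseudocount of 0.1, -0.031 on the TPM scale, -0.068 to 0.72 leaving out a library), Ccl11 in recovered against pre-leukemic samples (1.39 on the TPM scale, -0.42 to 0.70), Ccl9 in the same comparison (-0.23 to 1.82), and in recovered against healthy samples Ccl8 (0.083 with 13 separate libraries, -1.09 to 1.01), Ccl3 (-0.48 to 0.075), Ccl19 (-0.036 to 1.33) and Ccl4 (adjusted p 0.939 to 1). The cause was not tested. The split of all genes into higher and lower calls moved with scaling: 1858 and 1725 in pre-leukemic against healthy samples became 791 and 4200 on the TPM scale, and 1945 and 3299 in recovered against pre-leukemic samples became 3768 and 1213 on the TPM scale and 2460 and 2424 with quantile normalization. Levels near 3 reads, among them Ccl3, Ccl8 and Ccl9 in several libraries, are limited by depth.

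Samples sharing a replicate number did not deviate together: r ran from -0.0194 to 0.0337 over 10 pairs, none over 0.1. With the replicate block, 1953 genes were higher and 1747 lower in pre-leukemic against healthy samples, the member counts were unchanged, and the uncalled changes of Ccl9 in pre-leukemic against healthy samples, Ccl11 in recovered against pre-leukemic samples and Ccl3 in recovered against healthy samples were -0.42, 0.39 and 0.0083.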
